A study of Mus musculus with 12 samples.

Results

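Ceramide synthesis was followed through 10 genes, taken by name from the 38924 genes of a table of RNA sequencing counts of mouse interscapular brown fat. Sptlc1, Sptlc2 and Sptlc3 encode the large subunits of serine palmitoyltransferase, Kdsr the reductase of the next step, Cers2, Cers4, Cers5 and Cers6 the ceramide synthases, Degs1 the dihydroceramide desaturase and Sgms1 a sphingomyelin synthase. All 10 were in the table and 9 had enough counts to be tested. Sptlc3, with 0 to 15 counts per library, did not, and its values are given as counts. Of the 9, 6 differed between temperatures, in different patterns. Sptlc1 rose with each step of cooling, and Sptlc2 was low at 22 °C. Cers5 fell with each step, though the step from 22 to 6 °C was called in only 13 of 23 other settings. Cers6 was lower at 22 than at 30 °C, and its rise from 22 to 6 °C was not called. As 65.7% of all 14870 tested genes differed between temperatures, 6 of 9 is a share like that of the whole table. With other scaling the count moved from 4 (RLE scaling) to 8 (scaling by total counts). It was lowest without the 30 °C libraries that match no numbered mouse (A and B below), where Sptlc1, Sptlc2 and Cers5 alone were called.

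Ceramide is the lipid from which the other sphingolipids are built. Serine palmitoyltransferase joins serine to palmitoyl-CoA on the face of the endoplasmic reticulum, Kdsr reduces the product to sphinganine, a ceramide synthase adds a second fatty acid, and Degs1 places the double bond that turns dihydroceramide into ceramide. The ceramide synthases differ in the fatty acid they prefer: Cers2 adds very long chains, Cers4 long chains, and Cers5 and Cers6 shorter ones such as palmitate. In fat tissue ceramides are known for their link to insulin resistance and to weaker thermogenesis.

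The mice were wild-type C57BL/6J, housed at 30 °C (thermoneutral), 22 °C (mild cold) or 6 °C (severe cold) for the 4 weeks between 10 and 14 weeks of age, with 4 mice and 4 libraries of total RNA per temperature and no other treatment named in the labels. The comparisons ask how the transcripts differ between temperatures, and whether the step from 22 to 6 °C differs from the step from 30 to 22 °C. Totals were 18290162 to 32513051 counts, except 86438386 in 22 °C mouse 3, whose library code in the header of the table (8846) also lies apart from the others (7509 to 7520). Of the 30 °C libraries, 2 could be tied to that temperature only by the letter in their header, and to no numbered mouse. The numbers in their headers are in none of the sample titles of that group. They are called mice A and B. Nothing in the labels names litters or cages, so p-values measure the spread between these mice alone. Ucp1, the heat-making uncoupling protein that defines brown fat, stood at 1469 ± 569, 3373 ± 1053 and 10440 ± 1044 CPM (SD, n = 4) at 30, 22 and 6 °C. CPM are counts scaled to the size of each library by the TMM method, which sets libraries on a common scale. Summed skeletal muscle markers ran from 6.09 to 3571 CPM over the libraries, and 0 of 8 passed edgeR's quasi-likelihood test at an adjusted p under 0.05 between any pair of temperatures. Summed macrophage markers, all 10 of them detected at each temperature, were 471, 486, 1267 and 1555 CPM in 30 °C mice 1, 2, A and B, 122 to 178 CPM at 22 °C and 208 to 425 CPM at 6 °C. In bulk tissue, fewer cells of a type and less RNA per cell cannot be told apart.

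Sequence before the RefSeq start is shown for the 4 members whose patterns the results turn on, Sptlc1, Sptlc2, Cers5 and Cers6, because their transcripts moved in different ways. Each is the 250 bases before the RefSeq start of the gene (build GRCm38.p6), written 5′ to 3′ on the strand of the gene: Sptlc1 at chr13:53377362-53377611, minus strand; Sptlc2 at chr12:87388356-87388605, minus; Cers5 at chr15:99772516-99772765, minus; Cers6 at chr2:68861191-68861440, plus. Capitals mark matches, on either strand, to a CCAAT box (CCAAT), an E-box (CACGTG) or a GC box (GGGCGG).
Sptlc1: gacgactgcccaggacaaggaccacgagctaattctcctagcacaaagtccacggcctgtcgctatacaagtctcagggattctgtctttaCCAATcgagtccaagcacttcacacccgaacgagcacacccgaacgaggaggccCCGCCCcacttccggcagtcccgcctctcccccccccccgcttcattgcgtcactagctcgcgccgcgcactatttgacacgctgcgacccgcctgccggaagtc
Sptlc2: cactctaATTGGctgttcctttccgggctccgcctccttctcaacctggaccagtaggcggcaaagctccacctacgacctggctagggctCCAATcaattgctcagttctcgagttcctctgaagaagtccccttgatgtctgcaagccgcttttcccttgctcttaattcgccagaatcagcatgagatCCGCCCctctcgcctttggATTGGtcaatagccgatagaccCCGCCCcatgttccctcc
Cers5: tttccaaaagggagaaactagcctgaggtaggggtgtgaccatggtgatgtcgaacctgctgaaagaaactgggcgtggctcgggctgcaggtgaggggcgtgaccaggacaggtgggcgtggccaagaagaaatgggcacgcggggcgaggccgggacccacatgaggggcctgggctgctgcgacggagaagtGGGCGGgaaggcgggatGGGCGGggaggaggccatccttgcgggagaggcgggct
Cers6: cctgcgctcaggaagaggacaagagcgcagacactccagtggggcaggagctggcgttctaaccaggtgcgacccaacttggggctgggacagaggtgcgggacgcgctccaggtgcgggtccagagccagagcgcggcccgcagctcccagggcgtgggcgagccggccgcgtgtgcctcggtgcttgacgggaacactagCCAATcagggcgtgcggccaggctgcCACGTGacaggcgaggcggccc
The sequence of Sptlc1 holds 1 CCAAT match and 1 GC box match, that of Sptlc2 3 and 2. Cers5 has 2 GC box matches and no CCAAT match, and Cers6 has 1 CCAAT match and 1 E-box match. Of all 32851 windows of this length, 33.8% hold CCAAT, 32.7% the GC box and 6.02% the E-box, which the windows of Degs1 and Cers2 (1 of them) also hold. No printed window holds a cAMP response element (TGACGTCA, in 1.55% of windows), a nuclear receptor motif (AGGTCA, 14.0%) or a sterol response element (TCACNCCAC, 1.05%). RefSeq gives 14 windows for the 10 members. By the gene positions given below, which come from another annotation, the Cers5 window lies within the gene (99734881 to 99772885). The Sptlc1 window reaches into its gene (53332748 to 53377397). A match describes letters and says nothing of binding.

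The subunits of serine palmitoyltransferase, the committed first step, moved in opposite directions from 30 to 22 °C and in the same direction from 22 to 6 °C. Sptlc1, the subunit common to every form of the enzyme, rose at both steps, whereas Sptlc2, its usual catalytic partner, fell at the first and rose at the second. Sptlc1 (chromosome 13, 53332748 to 53377397, minus strand, protein-coding like all members, GRCm38) stood at 32.1, 37.5, 36.2 and 35.8 CPM in 30 °C mice 1, 2, A and B, at 43.2, 41.3, 44.5 and 39.4 CPM in 22 °C mice 1 to 4, and at 56.2, 52.3, 57.1 and 51.3 CPM in 6 °C mice 1 to 4. Every 22 °C mouse was above every 30 °C mouse and below every 6 °C mouse. At 6 °C the level was 1.53-fold that at 30 °C (log2 fold change 0.62, SE 0.07, adjusted p = 1.1e-05; p-values here are those of the quasi-likelihood test of edgeR, with Benjamini-Hochberg adjustment over every tested gene). From 30 to 22 °C it rose by 0.25 (SE 0.07, adjusted p = 0.0102) and from 22 to 6 °C by 0.36 (SE 0.07, adjusted p = 0.00179). The steps did not differ beyond their error (difference 0.11, adjusted p = 0.518). Of all tested genes, 5.31% rose in both steps. The summed brown adipocyte markers took the same order, at 10570 to 12350 CPM at 30 °C, 16460 to 19110 at 22 °C and 22680 to 24950 at 6 °C. This sum includes Ucp1, whose mean went from 3373 CPM at 22 °C to 10440 CPM at 6 °C. Adipoq, also in the sum, went from 1100 to 621 CPM in that step, so the sum does not stand for each marker. Of these 8 markers, 5 rose and 1 fell at 6 against 30 °C, 5 rose and 0 fell at 22 against 30 °C, and 1 rose and 2 fell at 6 against 22 °C. None was at 0 in a whole group, and the part of these cells in the rise of Sptlc1 was not tested. Scaling by total counts, under which the median of all genes at 22 against 30 °C moved from -0.02 to -0.28, left no rise at 22 °C (-0.01, adjusted p = 0.927; 0.00168 to 0.927 over 23 alternatives).

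Sptlc2 (chromosome 12, 87305058 to 87388355, minus strand) stood at 24.5, 29.9, 36.2 and 35.3 CPM in 30 °C mice 1, 2, A and B, at 19.3, 20.6, 21.8 and 20.4 CPM in the 22 °C mice and at 28.4, 29.0, 27.3 and 28.2 CPM in the 6 °C mice. All 22 °C mice were below all others, and the 6 °C mice lay within the range of the 30 °C mice. It fell from 30 to 22 °C (log2 fold change -0.62, SE 0.11, adjusted p = 5.3e-04) and rose from 22 to 6 °C (0.46, SE 0.11, adjusted p = 0.00563), so that the steps differed by 1.07 (SE 0.19, adjusted p = 0.00161). Such a fall and rise, both called, was found for 5.13% of tested genes. At 6 against 30 °C the difference was -0.16 (adjusted p = 0.217). That comparison changed with the 30 °C libraries left out, to -0.26 without mouse 1 (adjusted p = 0.0157) and 0.07 without mice A and B (adjusted p = 0.622), in a range of 0.00434 to 0.691 over 23 alternatives. The fall at 22 °C was -0.41 without mice A and B (adjusted p = 0.00985), and over 23 alternatives its adjusted p ranged from 6.9e-06 to 0.0343.

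Sptlc3 (chromosome 2, 139493913 to 139637674, plus strand), an alternative catalytic subunit, was near the limit of detection. It had 1, 0, 1 and 1 counts in 30 °C mice 1, 2, A and B, 3, 3, 15 and 4 in the 22 °C mice (15 in the deep library) and 6, 7, 10 and 4 in the 6 °C mice. Scaled, these are 0.0238 ± 0.016 CPM at 30 °C, 0.170 ± 0.0145 at 22 °C and 0.260 ± 0.064 at 6 °C (SD, n = 4), and every colder mouse was above every 30 °C mouse. From the summed counts the ratio was 10.6 at 6 against 30 °C (exact 95% interval 3.25 to 54.4), 6.89 at 22 against 30 °C (2.10 to 35.7) and 1.53 at 6 against 22 °C (0.856 to 2.75). The intervals cover counting error only. When no filter on low counts was applied, Sptlc3 entered the test with a log2 fold change of 3.21 at 6 against 30 °C (SE 0.65, adjusted p = 5.3e-04), 2.60 at 22 against 30 °C (SE 0.67, adjusted p = 0.00604) and 0.60 at 6 against 22 °C (adjusted p = 0.438).

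**Figure D1:**
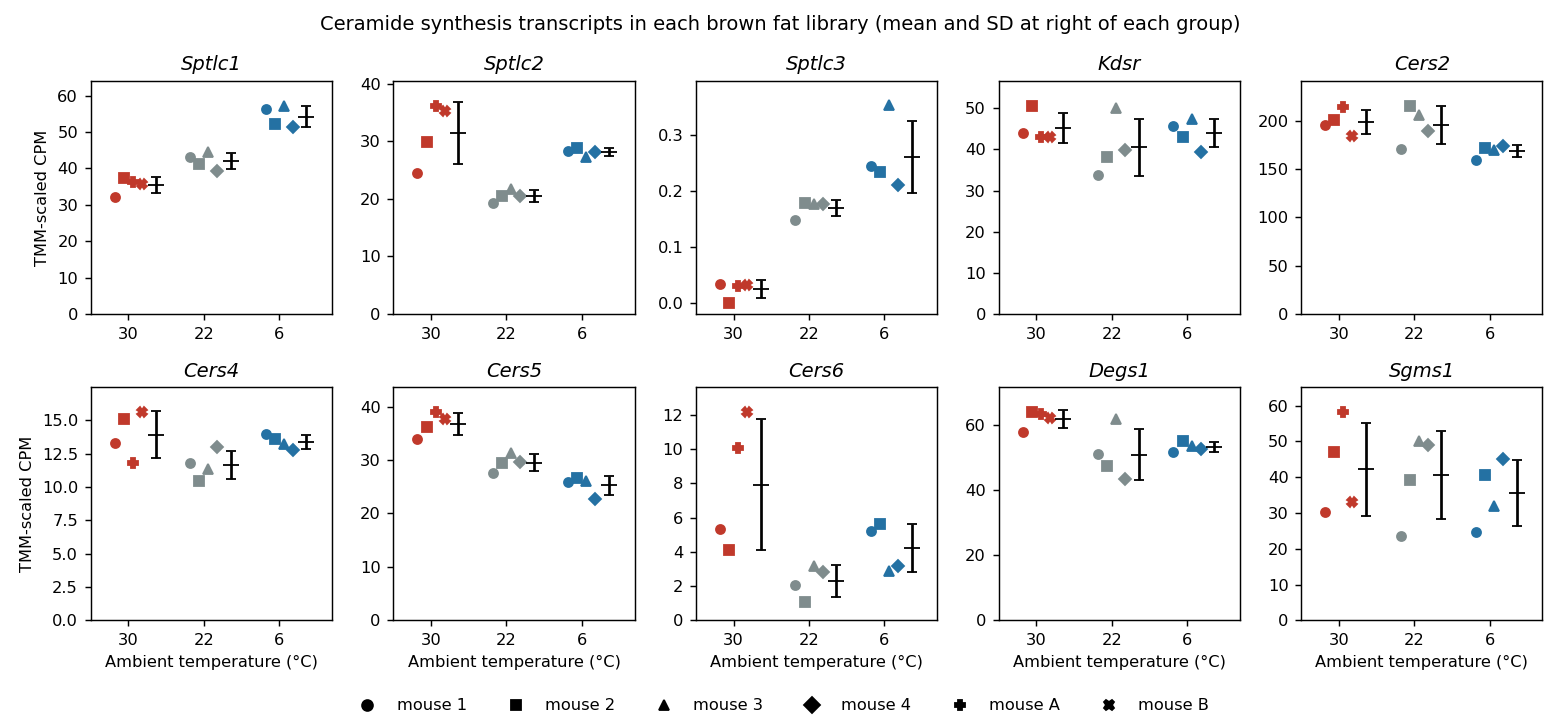
TMM-scaled CPM (y axis) of each member in each library at 30, 22 and 6 °C (x axis), a point per mouse, with the mean and SD of 4 mice at the right of each group; axes start at 0 except for Sptlc3, which starts just below it. Sptlc1 climbs and Cers5 declines with no overlap between groups, Sptlc2 is lowest at 22 °C, and Sgms1 spreads widely at every temperature.

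Kdsr (chromosome 1, 106720459 to 106759727, minus strand), which reduces the product of the first step, stood at 44.0, 50.6, 43.2 and 43.1 CPM in the 30 °C mice, at 33.7, 38.1, 50.2 and 40.0 CPM in the 22 °C mice and at 45.7, 43.1, 47.4 and 39.5 CPM in the 6 °C mice. The groups overlapped, and no comparison passed (log2 fold change -0.04 at 6 against 30 °C, adjusted p = 0.77; -0.15 at 22 against 30 °C, adjusted p = 0.278; 0.11 at 6 against 22 °C, adjusted p = 0.445). The highest 22 °C value came from the deep library of mouse 3. Without it the fall at 22 °C was -0.29 (adjusted p = 0.0221) and the difference of the steps 0.54 (adjusted p = 0.0283). Over the alternatives these adjusted p-values ranged from 0.0106 to 0.617 and from 0.0283 to 0.714.

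No ceramide synthase was called higher in any pair of temperatures. Cers5 fell at both steps, Cers2 was lower at 6 °C, Cers6 was lower at 22 °C, and Cers4 did not pass in any comparison. Cers2 (chromosome 3, 95314791 to 95323599, plus strand, 5.96% of its exon bases under genes on the other strand) stood at 196, 201, 214 and 184 CPM in the 30 °C mice, at 171, 216, 206 and 190 CPM in the 22 °C mice, and at 160, 172, 170 and 174 CPM in the 6 °C mice. Every 6 °C mouse was below every 30 °C mouse, while the 22 °C mice spanned both. The fall at 6 against 30 °C was 0.23 on the log2 scale (log2 fold change -0.23, SE 0.08, adjusted p = 0.023), against a median of -0.11 over all tested genes. It was not called without 30 °C mouse A (adjusted p = 0.0703), without 6 °C mouse 1 (adjusted p = 0.0701), with RLE scaling (-0.18, adjusted p = 0.0758) or with DESeq2 (-0.18, adjusted p = 0.06), and was called in 16 of 23 alternatives, with adjusted p from 3.6e-05 to 0.0849. Against 22 °C it stood at -0.21 (adjusted p = 0.0559), which passed without 22 °C mouse 1 (-0.27, adjusted p = 0.0202) and without 30 °C mouse B (adjusted p = 0.0478), in a range of 0.0129 to 0.157 over 23 alternatives. At 22 against 30 °C it was -0.02 (adjusted p = 0.842).

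Cers5 (chromosome 15, 99734881 to 99772885, minus strand) stood at 34.0, 36.3, 38.9 and 37.6 CPM in the 30 °C mice, at 27.5, 29.5, 31.4 and 29.6 CPM in the 22 °C mice and at 25.8, 26.6, 26.0 and 22.7 CPM in the 6 °C mice. No group overlapped another. The level fell at 6 against 30 °C (log2 fold change -0.54, SE 0.07, adjusted p = 4.9e-05) and at 22 against 30 °C (-0.31, adjusted p = 0.00353). From 22 to 6 °C it fell by 0.22 (adjusted p = 0.0325), which was lost without 22 °C mouse 2, 3 or 4 or 6 °C mouse 1, 3 or 4 (adjusted p = 0.0533 to 0.112), with DESeq2 (adjusted p = 0.0513) and in all in 10 of 23 alternatives (0.0245 to 0.112). The fall at 22 against 30 °C was -0.25 without mice A and B (adjusted p = 0.0541, in a range of 2.3e-04 to 0.116), and that at 6 against 30 °C held in 23 of 23 alternatives (adjusted p = 3.1e-08 to 0.00848). Of all tested genes, 2.96% fell in both steps. Beside this fall, markers of fibroblasts (6 of 6 tested) and of T and NK cells (7 of 7) fell from 30 °C to both other temperatures; the summed fibroblast markers were 2582 to 4973 CPM at 30 °C, 998 to 1455 at 22 °C and 809 to 1018 at 6 °C. At 6 against 30 °C, 8 of 10 macrophage markers, 5 of 7 endothelial, 5 of 6 pericyte and smooth muscle (1 rose), 3 of 4 white adipocyte and 2 of 4 B cell markers fell as well. From 22 to 6 °C, 2 of 6 fibroblast, 0 of 7 T and NK cell and 3 of 4 white adipocyte markers fell. In that step 2 of 6 pericyte and smooth muscle and 1 of 4 B cell markers fell. Of the macrophage markers 4 rose and 1 fell, and of the endothelial markers 2 rose and 1 fell. Their part in the result was not tested.

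Cers6 (chromosome 2, 68861441 to 69114282, plus strand) varied widely between mice. It stood at 5.32, 4.10, 10.1 and 12.1 CPM in 30 °C mice 1, 2, A and B, at 2.08, 1.07, 3.18 and 2.81 CPM in the 22 °C mice and at 5.24, 5.65, 2.87 and 3.15 CPM in the 6 °C mice. The 22 °C mice were all below the 30 °C mice, and the 6 °C mice overlapped both. It fell at 22 against 30 °C (log2 fold change -1.75, SE 0.40, adjusted p = 0.00392), and the steps differed by 2.59 (SE 0.72, adjusted p = 0.0191), while the rise from 22 to 6 °C did not pass (0.85, SE 0.40, adjusted p = 0.126). At 6 against 30 °C it was -0.90 (SE 0.39, adjusted p = 0.065), which passed without 30 °C mouse 1 (adjusted p = 0.0458), 30 °C mouse 2 (0.024) or 22 °C mouse 2 (0.0473), in a range of 0.0221 to 0.871. Without mice A and B the fall at 22 °C was -0.998 (adjusted p = 0.0701, in a range of 2.3e-05 to 0.222) and the difference of the steps 1.86 (adjusted p = 0.0497). The difference of the steps was not called without 22 °C mouse 1 (adjusted p = 0.0538) or mouse 2 (adjusted p = 0.0515), in a range of 5.7e-04 to 0.161.

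The macrophage markers were low at 22 °C, as was Sptlc2, and the mean of Cers6 was lowest there. In mice A and B the summed markers were 1267 and 1555 CPM and Cers6 stood at 10.1 and 12.1, against 471 and 486 CPM of markers and 5.32 and 4.10 of Cers6 in mice 1 and 2. Sptlc2 split the same way, at 36.2 and 35.3 CPM in mice A and B against 24.5 and 29.9 CPM in mice 1 and 2. Of the 10 markers, 9 fell from 30 to 22 °C and 4 rose from 22 to 6 °C (1 fell), and for 9 the steps differed upward. For neither gene was the order the same in every mouse. With 471 CPM of markers, 30 °C mouse 1 had 24.5 CPM of Sptlc2, below every 6 °C mouse (27.3 to 29.0, with 208 to 425 CPM of markers). With 486 CPM of markers, 30 °C mouse 2 had 4.10 CPM of Cers6. That was below 6 °C mice 1 and 2 (5.24 and 5.65, with 352 and 425 CPM of markers). For Cers5, which fell in both steps, 8 of the markers fell at 6 against 30 °C and 4 rose at 6 against 22 °C. Endothelial markers were also lower at 22 than at 30 °C (6 of 7 fell), with the steps differing upward for 4 of 7, and their sums were 1171 to 1395 CPM at 30 °C, 760 to 893 at 22 °C and 815 to 915 at 6 °C. The part of these cells in the results was not tested.

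**Figure D2:**
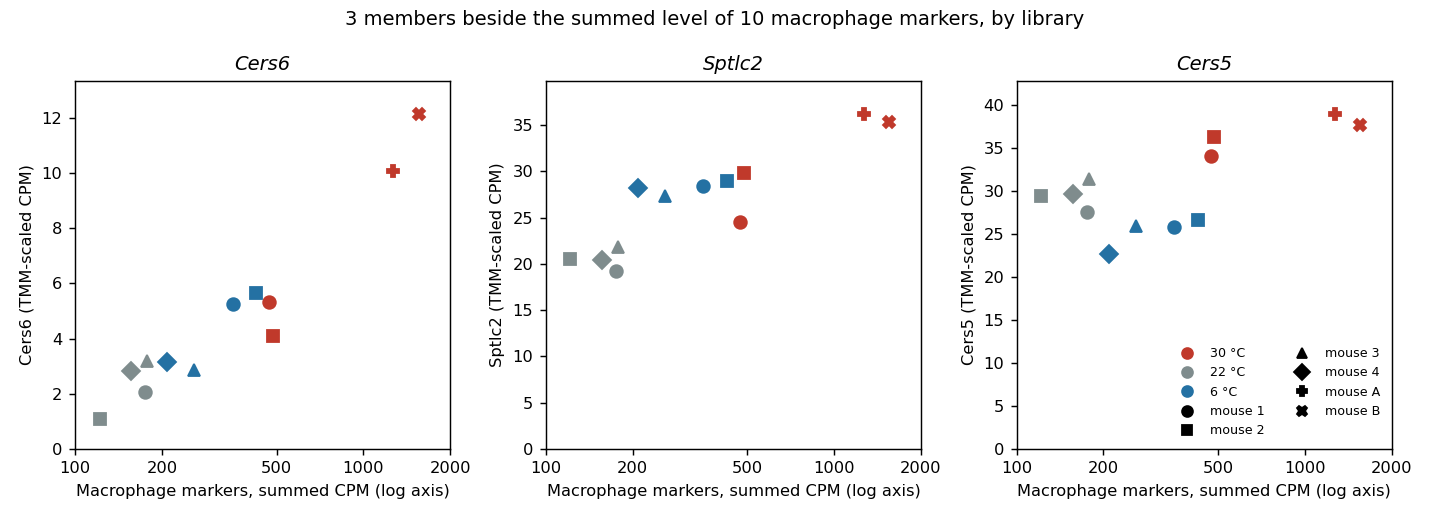
TMM-scaled CPM of Cers6, Sptlc2 and Cers5 (y axes, from 0) against the summed CPM of 10 macrophage markers (x axes, log scale), a point per library, coloured by temperature and shaped by mouse. The 4 libraries at 22 °C hold the lowest marker levels and the lowest Sptlc2. Mice A and B hold the highest markers and the highest values of each gene.

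Cers4 (chromosome 8, 4493026 to 4531680, plus strand, 8.97% of its exon bases under genes on the other strand) stood at 13.3, 15.1, 11.8 and 15.6 CPM in the 30 °C mice, at 11.8, 10.5, 11.4 and 13.0 CPM in the 22 °C mice and at 14.0, 13.6, 13.2 and 12.8 CPM in the 6 °C mice. The groups overlapped. At 22 against 30 °C it stood at -0.26 (adjusted p = 0.059), which passed without mouse A (-0.33, adjusted p = 0.0186) or 22 °C mouse 4 (adjusted p = 0.0409), in a range of 0.00352 to 0.179. The other pairs gave -0.05 (6 against 30 °C, adjusted p = 0.666) and 0.20 (6 against 22 °C, adjusted p = 0.151).

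Degs1 (chromosome 1, 182275772 to 182282804, minus strand), the desaturase, stood at 57.8, 63.9, 63.6 and 62.2 CPM in the 30 °C mice, at 51.2, 47.5, 61.8 and 43.4 CPM in the 22 °C mice and at 51.9, 55.1, 53.7 and 52.5 CPM in the 6 °C mice. Every 6 °C mouse was below every 30 °C mouse, and at 22 °C all but mouse 3, the deep library, were too. The fall was called at 22 against 30 °C (log2 fold change -0.28, SE 0.09, adjusted p = 0.0259) and not at 6 against 30 °C (-0.22, adjusted p = 0.0612). The call at 22 °C was lost without 30 °C mouse 2, A or B or 22 °C mouse 1, 2 or 4 (adjusted p = 0.0511 to 0.0818). Without 22 °C mouse 3 the falls were -0.40 (adjusted p = 0.00115) at 22 °C and -0.21 (adjusted p = 0.0167) at 6 °C, and the steps differed by 0.58 (adjusted p = 0.00799); without 22 °C mouse 4 the fall at 6 °C also passed (adjusted p = 0.0415). Over the alternatives the adjusted p ranged from 0.00111 to 0.137 at 22 °C, from 7.1e-04 to 0.244 at 6 °C and from 0.00799 to 0.39 for the steps. At 6 against 22 °C the difference was 0.06 (adjusted p = 0.63).

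Sgms1 (chromosome 19, 32122727 to 32389714, minus strand), which turns ceramide into sphingomyelin in the Golgi, stood at 30.4, 47.1, 58.1 and 33.1 CPM in the 30 °C mice, at 23.7, 39.3, 50.1 and 49.0 CPM in the 22 °C mice and at 24.7, 40.6, 31.8 and 45.2 CPM in the 6 °C mice. The spread within each temperature was wider than any difference between them. The log2 fold changes were -0.25 (6 against 30 °C, adjusted p = 0.474), -0.05 (22 against 30 °C, adjusted p = 0.899) and -0.19 (6 against 22 °C, adjusted p = 0.628).

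Counted over the 9 tested members, 1 rose and 2 fell at 6 against 30 °C, where 56.8% of all tested genes changed (25.3% rose and 31.5% fell). At 22 against 30 °C 1 rose and 4 fell (of all tested genes 44.6% changed, 21.8% up and 22.8% down), and at 6 against 22 °C 2 rose and 1 fell (34.2%, 16.9% up and 17.4% down). For 2 members, Sptlc2 and Cers6, the step from 22 to 6 °C lay above the step from 30 to 22 °C, and for 0 below (29.3% of all tested genes, 14.3% above and 15.0% below). The ranges of the groups did not overlap for 4 of 9 at 6 against 30 °C (51.5% of all tested genes), 4 of 9 at 22 against 30 °C (38.9%) and 3 of 9 at 6 against 22 °C (34.9%). The median log2 fold change of the members was -0.22 at 6 against 30 °C, -0.26 at 22 against 30 °C and 0.11 at 6 against 22 °C, beside -0.11, -0.02 and -0.03 over all tested genes. Under scaling by total counts 1939 genes were higher and 7888 lower at 6 against 30 °C, beside 3767 and 4677, the median of all genes was -0.43, and 7 members fell.

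**Figure D3:**
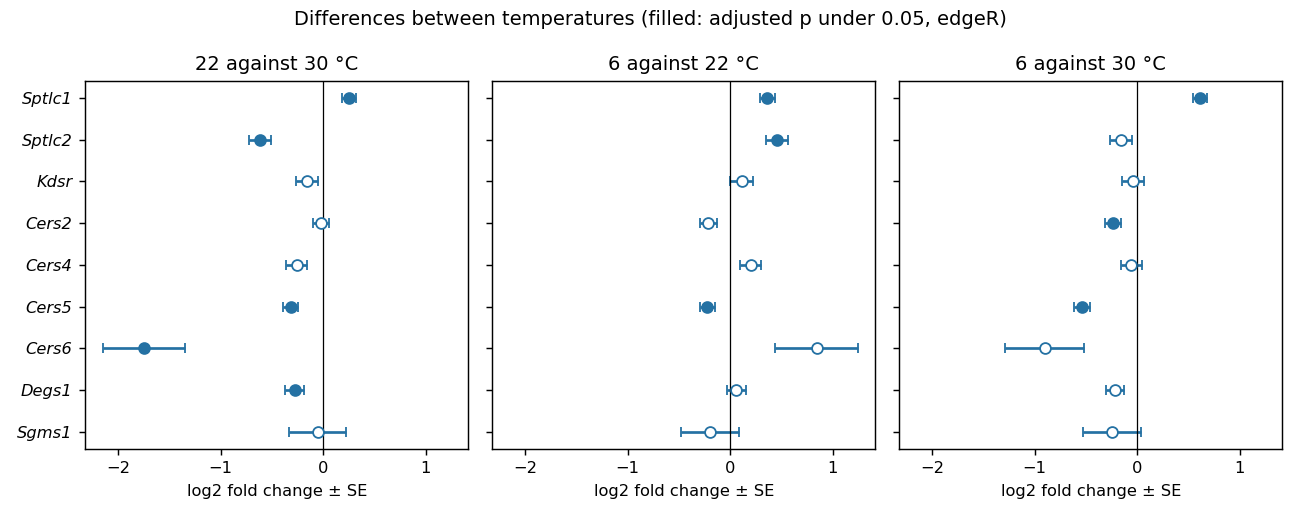
Log2 fold changes of the 9 tested members (x axis) with their SE from edgeR's fit, a panel per comparison; filled points passed at an adjusted p under 0.05. Sptlc1 lies above 0 in all 3 pairs and Cers5 below 0 in all 3. Sptlc2, Cers6, Kdsr, Cers4 and Degs1 change sign between the steps, and of these only Sptlc2 is called in both.

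Levels of different genes were compared per kilobase of exon (CPM per kb, a level and not a difference). The length counts all annotated exons of a gene, merged, and the transcripts expressed may be shorter. Cers2 was the most abundant member at every temperature, at 54.1 ± 3.40, 53.3 ± 5.28 and 46.0 ± 1.70 CPM per kb at 30, 22 and 6 °C (SD, n = 4), and Degs1 was next at 23.9 ± 1.08, 19.7 ± 3.04 and 20.6 ± 0.539. At 30 °C Cers5 (10.4 ± 0.589) and Sptlc1 (9.95 ± 0.644) were not apart, since their ranges overlapped. At 22 °C Sptlc1 (11.8 ± 0.634) stood above Cers5 (8.33 ± 0.446), and at 6 °C at 15.2 ± 0.811 against 7.13 ± 0.490, with no overlap. Kdsr, Sgms1 and Sptlc2 followed between 2.53 and 5.55 CPM per kb, with overlapping ranges between Sgms1 and Sptlc2 at each temperature. Cers4 (0.951 to 1.14) and Cers6 (0.258 to 0.891) came below them, overlapping at 30 °C only, and Sptlc3 was last, at 0.00838 to 0.0915.

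**Figure D4:**
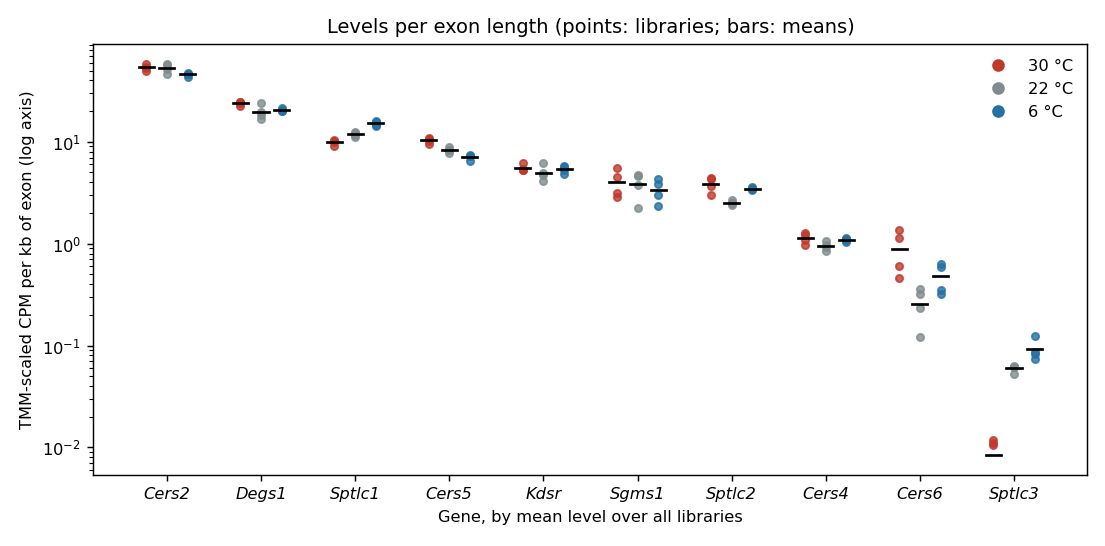
CPM per kb of exon (log axis) of the 10 members in every library at 30, 22 and 6 °C; the library with 0 counts of Sptlc3 cannot be drawn on a log axis. Cers2 and Degs1 lead at each temperature, and Sptlc1 passes Cers5 between 30 and 22 °C.

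Within a library the makeup of each enzyme family does not depend on scaling, and it is described here without a test. It does depend on the exon lengths used, which merge all annotated exons of a gene (Sptlc1 3556 bases, Sptlc2 8115). In CPM, without length, Sptlc1 and Sptlc2 stood at means of 35.4 and 31.5 at 30 °C. Cers2 made up 81.4% ± 1.57 of the 4 synthases per length at 30 °C, 84.8% ± 1.095 at 22 °C and 84.1% ± 1.30 at 6 °C (SD, n = 4). Cers5 made up 15.6% ± 0.825, 13.3% ± 0.746 and 13.1% ± 0.993, and its 30 °C range, 14.8% to 16.8%, lay above the others. Cers6 made up 1.34%, 0.414% and 0.872%. Its 30 °C mean rests on mice A and B (1.59% and 2.16%), since mice 1 and 2 (0.926% and 0.694%) lay within the 6 °C range (0.587% to 1.14%). Cers4 made up 1.72%, 1.53% and 2.00%. The ratio of Cers2 to Cers5 was 5.22 at 30 °C, 6.38 at 22 °C and 6.46 at 6 °C. Among the serine palmitoyltransferase subunits Sptlc1 made up 72.1% ± 2.83 at 30 °C, 82.0% ± 0.969 at 22 °C and 81.0% ± 0.986 at 6 °C, and the ratio of Sptlc1 to Sptlc2 was 2.59, 4.68 and 4.38. In log2 the 30 °C ratios (1.19 to 1.58) lay below all those at 22 and 6 °C (2.04 to 2.36). Without mice A and B the log2 ratio of Sptlc1 to Sptlc2 rose by 0.678 at 22 °C and 0.582 at 6 °C.

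Outside the 10 members, 65 other genes of sphingolipid metabolism and acyl supply were listed in 8 groups, and 60 were tested. Of these, 21 rose and 18 fell at 6 against 30 °C, 15 rose and 21 fell at 22 against 30 °C, and 23 rose and 8 fell at 6 against 22 °C, with medians of 0.03, -0.05 and 0.23. Over all tested genes the shares that rose and fell were 25.3% and 31.5%, 21.8% and 22.8%, and 16.9% and 17.4% in the same order, and the counts of each group below are to be read against them. Among 5 tested regulators of the first step, 2 rose and 1 fell at 6 against 30 °C, 2 rose and 0 fell at 22 against 30 °C, and 0 rose and 3 fell at 6 against 22 °C. Rtn4, whose product restrains serine palmitoyltransferase (18.4% of its exon bases lie under a gene on the other strand), was 362 ± 33.3, 555 ± 17.9 and 429 ± 13.5 CPM at 30, 22 and 6 °C. It rose at 22 °C (log2 fold change 0.61, adjusted p = 6.1e-05) and fell from 22 to 6 °C (-0.37, adjusted p = 0.00266), the reverse of Sptlc2. Sptssa, the small activating subunit, was 56.8 ± 1.5, 57.1 ± 3.59 and 43.8 ± 4.21 CPM and fell at 6 against 30 °C (-0.37, adjusted p = 0.00106). Of the other synthases and the second desaturase only Degs2 had enough counts. Degs2, which hydroxylates dihydroceramide, fell from 4.72 ± 1.78 to 1.04 ± 0.155 CPM at 22 °C (-2.15, adjusted p = 7.0e-05) and rose to 2.51 ± 0.499 at 6 °C (1.24, adjusted p = 0.00427).

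The genes that use ceramide or its products differed among themselves. Of 8 genes listed under sphingomyelin, among them the sphingomyelinase-like Smpdl3a and Smpdl3b, 3 rose and 1 fell at 6 against 30 °C. Sgms2, the sphingomyelin synthase of the plasma membrane, went from 2.23 ± 0.309 to 5.27 ± 0.878 CPM (log2 fold change 1.24, adjusted p = 1.2e-04), and Smpd3, a neutral sphingomyelinase, from 3.09 ± 0.842 to 1.29 ± 0.382 CPM (-1.28, adjusted p = 0.00962). Of 16 glycosphingolipid genes, 2 rose and 6 fell at 6 against 30 °C, and 2 rose and 9 fell at 22 against 30 °C. St3gal5, the synthase of the ganglioside GM3, went from 8.57 ± 0.731 to 74.1 ± 14.4 CPM (3.11, adjusted p = 1.5e-07), and Gba2, a glucosylceramidase, from 27.1 ± 0.919 to 13.2 ± 0.903 CPM (-1.04, adjusted p = 2.4e-06). Of 4 ceramidases, 1 rose and 2 fell at 6 against 30 °C: Acer2, an alkaline ceramidase of the Golgi, was at 58.9 ± 2.45 and 114 ± 51.1 CPM (0.95, adjusted p = 0.0121), and the acid ceramidase Asah1 at 67.4 ± 13.7 and 50.4 ± 3.40 CPM (-0.42, adjusted p = 0.0145).

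Among 5 genes of ceramide phosphorylation and transport, 2 rose and 1 fell at 6 against 30 °C. Plekha8, which carries glucosylceramide, rose by 0.62 (adjusted p = 4.1e-05), and Gltp, a glycolipid transfer protein, changed by -0.55 (adjusted p = 0.0105). Of 12 genes of sphingosine 1-phosphate, 4 rose and 4 fell: Sgpl1, the lyase that ends the pathway, rose from 133 ± 15.0 to 291 ± 35.5 CPM (1.13, adjusted p = 3.2e-06), and the phosphatase Sgpp1 changed from 17.9 ± 3.56 to 8.32 ± 1.53 CPM (-1.105, adjusted p = 6.3e-05). Of 9 genes of acyl supply (elongases, acyl-CoA synthetases and the acyl-CoA binding protein Dbi), 7 rose and 2 fell at 6 against 30 °C. Acsl5, an acyl-CoA synthetase, went from 81.7 ± 8.56 to 1403 ± 153 CPM (4.10, adjusted p = 2.5e-08), and Elovl7, an elongase, from 0.585 ± 0.0469 to 0.157 ± 0.0963 CPM (-1.81, adjusted p = 0.00183).

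**Figure D5:**
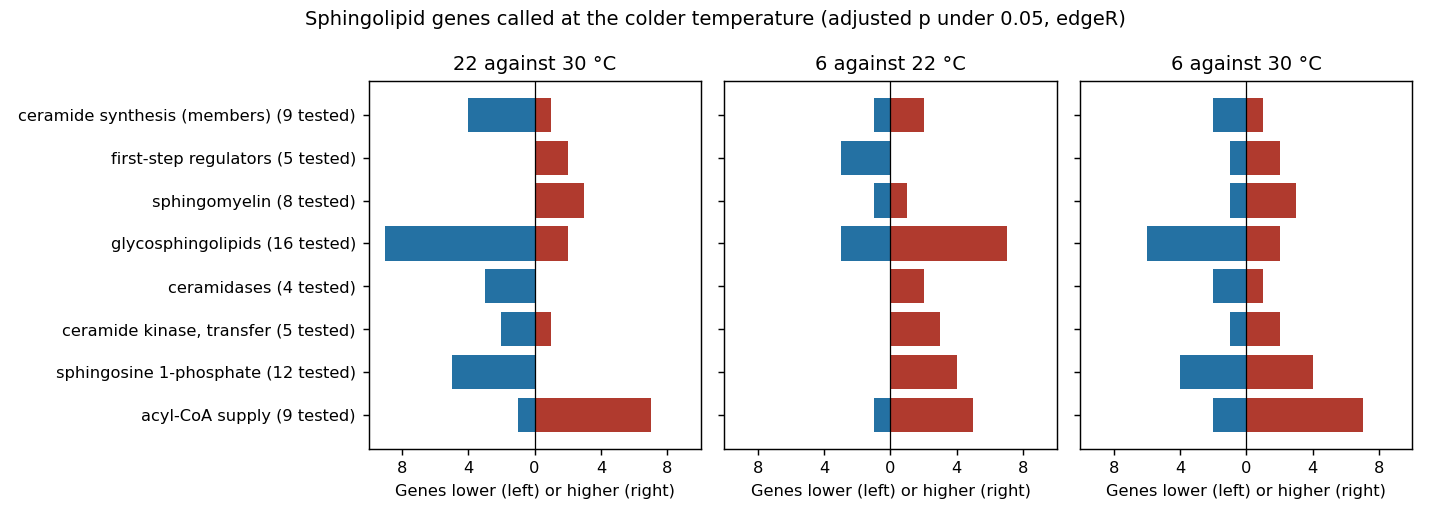
Number of tested genes called lower (left, blue) and higher (right, red) at the colder temperature (x axis). Rows are the members and 7 listed groups (y axis), in 3 comparisons. Degs2, alone in its group, is left out. The acyl suppliers hold mostly genes called higher at 6 and 22 °C against 30 °C, and the glycosphingolipid genes mostly genes called lower at 22 °C.

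The genes whose log2 CPM followed a member most closely over the 12 libraries, out of 13454 compared, are named as a description, since temperature, depth and scaling are shared by all of them. For Sptlc1 they were Gk, glycerol kinase (Pearson r 0.984), Twf1 (0.983) and Oscar (0.979). Gk stood at 58.5, 131 and 414 CPM at 30, 22 and 6 °C, and Oscar only at 0.26, 0.47 and 1.89 CPM. For Cers5 they were Rab27a (0.986), Plp2 (0.980) and B2m (0.974), a subunit of the major histocompatibility complex that stood at 972, 513 and 341 CPM. For Sptlc2 they were Litaf (0.987), Tm4sf19 (0.985) and Acvrl1 (0.980), with Litaf at 47.6, 18.8 and 35.8 CPM. Tm4sf19, at 1.17, 0.0029 and 0.60 CPM, was near the limit of detection at 22 °C. The r values hold over 12 libraries in 3 temperature groups.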

How the data were processed

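The authors deposited raw counts for each Ensembl gene, without normalization. Per the submitters' processing notes, which state no roles, the builds were mm10 and GRCm38 and the tools STAR 2.4.2a, FastQC 0.10.1 and edgeR 3.14.0. Strandedness is not given in the sources used here, nor is the counting program. Whether reads of overlapping genes on opposite strands were kept apart is therefore not known. The members and gene lists were chosen with earlier results of these data known. The named genes are all 10 members, the gene with the smallest p in each direction of each list at 6 against 30 °C, Ucp1, markers of cell types whose level moved with a result, and the 3 genes closest to the 3 members with the smallest p.

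Counts were tested in R 4.3.3 with edgeR 4.0.16 (filterByExpr, TMM, robust glmQLFit, 1 factor of 3 temperatures, all 12 libraries, two-sided glmQLFTest, Benjamini-Hochberg over 14870 genes, called at an adjusted p under 0.05), with DESeq2 1.42.0 and limma 3.58.1 voom as alternatives. The scripts were tested on simulated counts before use. Exon lengths and positions came from the GENCODE annotation of GRCm38, and 96.6% of identifiers matched a symbol.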

Additional observations from a re-analysis of the deposited data

Results flagged for a closer look

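In 30 groups of 4 libraries, 3 held a value far from the rest by Dixon's test (the gap to the nearest value over the range of the group), where chance gives about 1 in 20. Sptlc3 was lowest in 30 °C mouse 2 (0.884), which had 0 counts, and in 22 °C mouse 1 (0.903), which had 3. The other 30 °C libraries had 1 count each, and 22 °C mouse 2 also had 3. At such counts the test, made for continuous values, cannot tell an outlying mouse from a step of counting. Kdsr was highest in 30 °C mouse 2 (0.879, at 50.6 CPM).

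The step from 22 to 6 °C differed from the step from 30 to 22 °C by 1.07 on the log2 scale for Sptlc2 and by 2.59 for Cers6. The 30 °C mice A and B were high in macrophage markers as given in the report, and the part of those cells was not tested.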

How the results depend on the processing

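Of 855 single-gene results under another setting, 759 kept direction and side of the threshold, 39 lost the call, 33 gained it and 24 turned sign. Members called lower at 6 against 30 °C (2) were 7 with total counts and 1 with RLE scaling, no filter, an adjusted p under 0.01 or without mice A and B, and 1 to 4 with 1 library left out. At 22 against 30 °C the 1 called higher became 0 with total counts or the 0.01 threshold, and the 4 lower became 7 with total counts and 1 without mice A and B. At 6 against 22 °C the 1 lower became 0 with RLE scaling, no filter, DESeq2 or the 0.01 threshold, 2 with upper-quartile or total-count scaling or a filter of 1 CPM in 4 libraries, and 0 to 2 with 1 library left out. The 2 members whose steps differed upward became 4 with total counts, 1 at the 0.01 threshold and 1 to 4 with 1 library left out. The 6 that differed between temperatures were 8 with total counts, 4 with RLE scaling, DESeq2, no filter or the 0.01 threshold, 3 without mice A and B, and 4 to 7 with 1 library left out.

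Same-numbered libraries did not deviate together (correlations -0.152 to 0.23 over 8 pairs, and 1 of 8 libraries at 22 and 6 °C correlated best with its own number). A lack of shared deviation cannot show whether the numbers pair mice, and the main fit used no pairing. With the replicate block, which keeps only numbered mice, 1 member was lower at 6 against 30 °C, 0 were higher and 1 lower at 22 against 30 °C, 0 were lower at 6 against 22 °C, 1 differed between steps and 3 between temperatures.

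Signs turned only in results that were not called, apart from Sptlc1 at 22 against 30 °C with total counts (-0.00975). At 6 against 30 °C Sptlc2 became 0.0615 (replicate block) and 0.0653 (without mice A and B), Kdsr 0.0139 (RLE), 0.0143 (DESeq2) and 0.00485 (only those 2 groups), Cers4 0.00119 (DESeq2). With 1 library left out, Kdsr ranged from -0.0746 to 0.0192 and Cers4 from -0.127 to 0.00216 there, Cers2 from -0.0692 to 0.0386 and Sgms1 from -0.185 to 0.142 at 22 against 30 °C, Degs1 from -0.00751 to 0.185 at 6 against 22 °C, and the step difference of Sgms1 from -0.514 to 0.128. At 22 against 30 °C Cers2 became 0.00359 (RLE) and 0.00378 (DESeq2) and Sgms1 0.0662 (without mice A and B). The difference of the steps became 0.0165 for Cers2 and 0.0499 for Sgms1 (total counts), and 0.0388 for Sgms1 (replicate block). The causes were not tested.

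Sptlc3, at 0 to 15 counts per library, is at the limit of this depth.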
